A study of Mus musculus with 4 samples.

Results

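The genes described here handle the inhibitory transmitter GABA (gamma-aminobutyric acid) from its synthesis to its breakdown. They were picked by gene symbol, with earlier results of these data known: Gad1, Gad2, Slc32a1, Slc6a11 and Abat, which are 5 of the 15409 genes listed in the data. All 5 were listed in every library and passed the filter on low levels, which kept genes averaging 1 CPM or more (a read count scaled to a library total of 1000000) and left 13912 for tests. RNA was sequenced from the brain septum of TCRb-/- mice, whose gene for the T cell receptor beta chain is disrupted, and of wild-type (WT) mice. Animals of both genotypes were stressed by restraint in a DecapiCone, a soft plastic holder, in sessions of 30 min over 3 days, and the tissue was taken 1.5 h after the final session, so every value is from restrained mice. There were 2 libraries per genotype, 1 in each of 2 experiments, and each library pooled 4 to 5 mice. A replicate is therefore a pool. The 2 pools of a genotype came from different experiments, so their spread holds the difference between experiments too, unless the experiment is fitted as well. The p-values draw on this spread in the gene itself and in the other genes. The sources used here do not state the strain, sex or age of the mice, and unrestrained animals were not analysed here.

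Glutamate decarboxylase makes GABA from glutamate, in a large form found through the cell body (GAD67, encoded by Gad1) and a smaller form concentrated at nerve endings (GAD65, encoded by Gad2). The vesicular transporter VGAT (Slc32a1) loads GABA into synaptic vesicles, plasma membrane transporters such as GAT3 (Slc6a11, mainly on astrocytes) take it up again, and the mitochondrial enzyme GABA transaminase (Abat) starts its breakdown. Most projection neurons of the lateral septum are GABAergic, and the medial septum holds GABAergic, cholinergic and glutamatergic neurons.

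The libraries held 19988137 to 26210790 reads, so that 1 read was worth 0.0382 to 0.050 CPM. Trbc2, part of the disrupted receptor gene, had 0 reads in both TCRb-/- libraries and 169 and 86 reads in WT 1 and WT 2, so that the targeted gene and the genotype labels were not in conflict. With limma on log2(CPM + 1) and genotype as the only term, 0 of 13912 genes differed between genotypes at an adjusted p under 0.05 (0%). An unadjusted p under 0.05 was found for 43 genes (0.309%). Trbc2 itself, at an unadjusted p of 0.000157 (limma), did not pass, so this fit missed even the targeted gene. With the experiment as a block, 2 genes (0.0144%) passed the threshold. They were Trbc2 (limma adjusted p = 0.0323) and 1 of 16 choroid plexus markers. By experiment 3292 genes passed, and between 1406 (without TCRb-/- 1) and 3390 (without WT 2) with 1 library left out, 1823 without TCRb-/- 2 and 1637 without WT 1. The leading principal component took 76.7% of the variance and split the libraries by experiment. Neuronal transcripts were abundant: all 11 pan-neuron markers had reads in every library, and their summed level was 7583 to 8355 CPM. Of 15 septum markers 14 were listed, with a sum of 438 to 501 CPM, and the sum of the 16 striatum markers was 1801 CPM in TCRb-/- 2 and between 3853 and 7078 CPM in the other 3 libraries.

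The clearest pattern among the 5 genes was a lower level of both GABA-synthesizing enzymes in TCRb-/- tissue. Gad1 and Gad2 were lower in both TCRb-/- libraries than in both WT libraries, Slc32a1 was higher in TCRb-/- in experiment 1 and lower in experiment 2, Slc6a11 was slightly higher and Abat slightly lower in both. None of the 5 passed the threshold for genotype, in a comparison where 0% of all genes did and the targeted Trbc2 was missed too. With the experiment as a block none of the 5 passed either, where 0.0144% of all genes did, Trbc2 among them. The plot of the members by library shows these values.

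**Figure D1:**
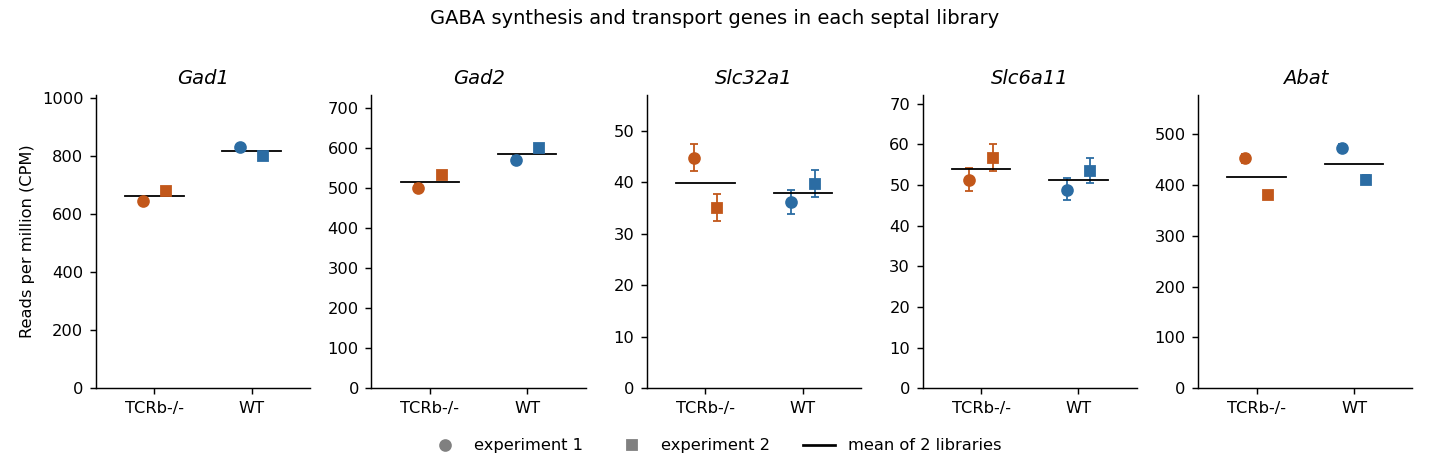
Level in CPM (linear axis from 0) of the 5 genes in each library, with TCRb-/- in orange and WT in blue, circles for experiment 1 and squares for experiment 2. Bars are 95% Clopper-Pearson counting intervals, hidden by the marker where narrow, and lines are means of 2 libraries. Both TCRb-/- points lie below both WT points for Gad1 and for Gad2, and the genotypes overlap for the other genes.

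Gad1 (chr2:70553072-70602014, plus strand, GRCm38, GENCODE M21) stood at 643.6 CPM in TCRb-/- 1 and 678.0 CPM in TCRb-/- 2, against 829.9 CPM in WT 1 and 800.1 CPM in WT 2. The genotypes did not overlap, and the 2 libraries of a genotype lay close together. The means were 661 ± 24.3 CPM in TCRb-/- and 815 ± 21.04 CPM in WT (SD, n = 2 pools each). Gad1 was 22.4% lower in TCRb-/- in experiment 1, with a ratio of 0.776 (95% counting interval 0.760 to 0.792), and 15.3% lower in experiment 2, with a ratio of 0.847 (0.829 to 0.867). These intervals treat each read as a separate count and hold no spread between pools. PCR copies were not told apart by molecular identifiers, so the intervals may be too narrow for counting error as well. Between the 2 experiments Gad1 differed by only 0.01 on the log2 scale (adjusted p = 0.958, limma).

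The genotype difference of Gad1 was -0.30 on the log2(CPM + 1) scale, with an SE of 0.12 and a 95% interval of -0.61 to 0.01. Its p was 0.0552 unadjusted and 1.00 adjusted over all genes (limma). With the experiment as a block the same difference had an interval of -0.47 to -0.14 and a p of 0.00290, which ranked 50 of 13912 genes and gave an adjusted p of 0.777 (limma). The SE of limma draws on the spread of the other genes as well as on that of Gad1. It was 0.07 with the block, although Gad1 differed by only 0.01 between the experiments. The lower p is therefore not a measure of the spread of Gad1 alone. The difference of Gad1 did not pass the correction for the number of genes tested. Of all genes tested, 1.29% were lower in TCRb-/- in each experiment by at least the smaller of the Gad1 differences.

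Gad2 (chr2:22622205-22693874, plus strand) was at 500.8 CPM in TCRb-/- 1, 531.2 CPM in TCRb-/- 2, 570.9 CPM in WT 1 and 599.6 CPM in WT 2. The genotypes again did not overlap, although the gap was narrower than for Gad1, and within each genotype the library of experiment 2 was the higher. The means were 516 ± 21.5 CPM in TCRb-/- and 585 ± 20.3 CPM in WT (SD, n = 2 pools each). Gad2 was 12.3% lower in TCRb-/- in experiment 1 and 11.4% lower in experiment 2, with ratios of 0.877 (95% counting interval 0.857 to 0.899) and 0.886 (0.864 to 0.909). Its difference was -0.18 on the log2 scale (95% interval -0.49 to 0.13, limma adjusted p = 1.00). With the experiment as a block the interval was -0.33 to -0.03, at an adjusted p of 0.848 (limma).

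Gad1 and Gad2 were thus 2 of 5 members whose libraries were lower in TCRb-/- without overlap, against 8.04% of all genes tested. The same 2 had an unadjusted p under 0.05 with the experiment as a block and a lower level in TCRb-/-, against 2.48% of all genes (limma). When the mean-variance trend was dropped from that fit Gad1 still had such a p and Gad2 did not. Gad1, Gad2 and Abat were lower in TCRb-/- in both experiments, 3 of 5 members against 24.5% of all genes tested. The members are 5 genes of the same pathway measured in the same 4 libraries, so these counts are not independent of each other. In bulk tissue, fewer cells of a type and less RNA per cell cannot be told apart.

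**Figure D2:**
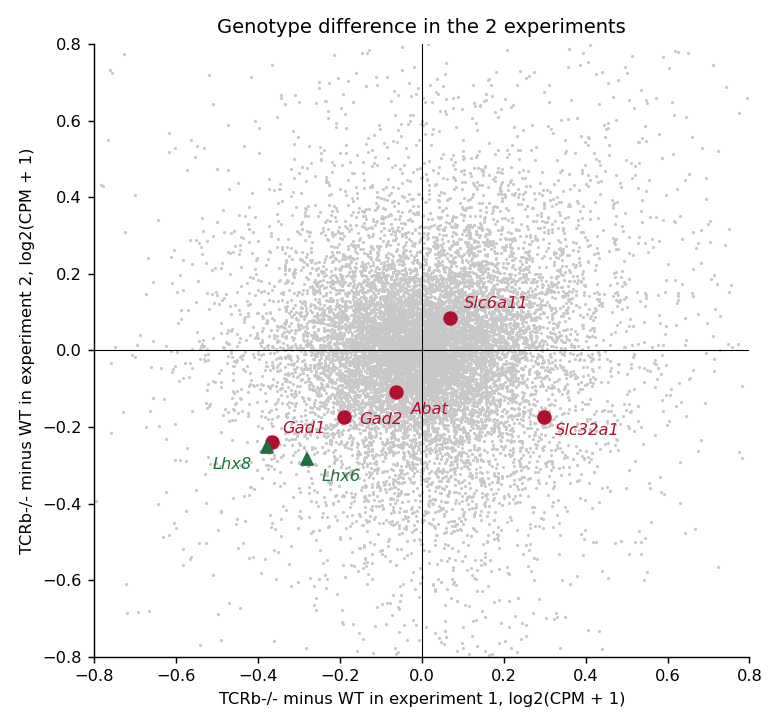
Difference TCRb-/- minus WT on the log2(CPM + 1) scale in experiment 1 (horizontal) and experiment 2 (vertical) for all tested genes (grey), the 5 members (red circles) and the transcription factor genes Lhx6 and Lhx8 (green triangles). Gad1 lies at -0.37 and -0.24 and Gad2 at -0.19 and -0.17, while Slc32a1 lies at 0.30 and -0.17; 171 genes fall outside the axes.

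Sequences upstream of the RefSeq start sites (GRCm38.p6, plus strand) were available for Gad1, Gad2, Slc32a1 and Slc6a11, 4 of the 5 genes. The first 3 are printed, from 5′ to 3′, because the levels of Gad1 and Gad2 were lower together in TCRb-/- tissue while that of Slc32a1 was not. Each begins 250 bases before the RefSeq start and stops before any GENCODE exon of the gene that the window reaches. The Gad1 stretch lies inside the annotated gene, since another GENCODE transcript starts farther upstream. Capitals mark the motif matches named after them.
Gad1, chr2:70561879-70562041: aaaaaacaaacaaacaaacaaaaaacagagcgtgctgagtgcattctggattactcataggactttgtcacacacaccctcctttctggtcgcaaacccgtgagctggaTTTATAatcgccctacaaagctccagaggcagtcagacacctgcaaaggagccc
Gad2, chr2:22622077-22622204: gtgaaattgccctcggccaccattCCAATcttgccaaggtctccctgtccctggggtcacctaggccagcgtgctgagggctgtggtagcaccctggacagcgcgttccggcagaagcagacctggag
Slc32a1, chr2:158610508-158610757: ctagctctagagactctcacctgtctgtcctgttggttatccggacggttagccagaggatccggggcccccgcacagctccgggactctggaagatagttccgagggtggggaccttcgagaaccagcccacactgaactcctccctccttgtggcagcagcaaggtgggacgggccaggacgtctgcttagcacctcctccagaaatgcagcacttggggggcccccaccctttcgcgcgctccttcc

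Across the whole 250-base windows, 6 motifs were searched on both strands, none of which contains another. The TATA box was searched with the letters TATAAA, and the GC box, a site of Sp1-type factors, as GGGCGG. The CAAT box was searched with the 5 letters CCAAT. The core of homeodomain factors of the Dlx type, which act in developing GABAergic neurons, was written as TAATTA. The E-box, a site of basic helix-loop-helix factors, was taken in the form CACGTG. The cyclic AMP response element was searched in its full palindromic form TGACGTCA. Gad1 held TATAAA on the reverse strand, printed as TTTATA, 136 bases before the start, as 12.37% of 32851 RefSeq windows held that motif somewhere. It also held 1 GGGCGG, 3 bases before the start, in the stretch not printed. Gad2 held 1 CCAAT 222 bases before the start (33.8% of windows), Slc6a11 held 3 GGGCGG (32.7% of windows), and the Slc32a1 window held none of the 6. The homeodomain core, the E-box and the cyclic AMP response element, present in 4.84%, 6.02% and 1.55% of windows, were in none of the 4. All 4 windows were richer in G and C than the median window of 52.4%, at 58.0% for Gad1, 64.0% for Gad2, 62.4% for Slc32a1 and 71.2% for Slc6a11. Their CpG counts were 17, 13, 12 and 25, against a median of 6. A match is a description of the letters, and factor binding at these windows was not measured.

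The vesicular transporter gene Slc32a1 (chr2:158610767-158615748, plus strand) did not share the pattern of the synthesis enzymes. Its level was 44.7 CPM in TCRb-/- 1 and 35.1 CPM in TCRb-/- 2, against 36.2 CPM in WT 1 and 39.7 CPM in WT 2. The highest and the lowest of the 4 libraries were both TCRb-/-. The means were 39.9 ± 6.81 CPM in TCRb-/- and 37.9 ± 2.48 CPM in WT (SD, n = 2 pools each). The ratio of TCRb-/- to WT was 1.24 in experiment 1 (95% counting interval 1.13 to 1.35) and 0.884 in experiment 2 (0.7995 to 0.977). The 2 ratios lay on opposite sides of 1. Their intervals hold no spread between pools, and with 1 pool per genotype in each experiment the difference between the experiments was not tested. The pooled difference was 0.06 on the log2 scale (95% interval -0.37 to 0.49, limma adjusted p = 1.00). Without TCRb-/- 1 that difference was -0.11 and without WT 1 its sign was negative as well, so its direction rests on the libraries of experiment 1. GENCODE places an antisense gene, Gm14205, across 697 exonic bases of Slc32a1. It was not listed, and the sources used here do not say whether the authors counted reads by strand.

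Slc6a11 (chr6:114131241-114249952, plus strand), the astrocytic uptake transporter, had 51.2 CPM in TCRb-/- 1, 56.7 CPM in TCRb-/- 2, 48.8 CPM in WT 1 and 53.4 CPM in WT 2. It was the only member with a higher level in TCRb-/- in both experiments, but the genotypes overlapped. The ratios were 1.05 (95% counting interval 0.970 to 1.14) and 1.06 (0.977 to 1.15), each within counting error of 1. The difference was 0.08 on the log2 scale (95% interval -0.27 to 0.42, limma adjusted p = 1.00). Taken as a share of the summed level of 14 astrocyte markers, Slc6a11 was 1.65% and 1.80% in TCRb-/- and 1.74% and 1.81% in WT, without separation of the genotypes.

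Abat (chr16:8513429-8621568, plus strand), the first enzyme of GABA breakdown, stood at 452.4 CPM in TCRb-/- 1, 380.5 CPM in TCRb-/- 2, 472.5 CPM in WT 1 and 410.4 CPM in WT 2. The libraries sorted by experiment and not by genotype. Within the experiments the TCRb-/- to WT ratio was 0.958 (95% counting interval 0.933 to 0.982) and 0.927 (0.899 to 0.956). The genotype difference was -0.09 on the log2 scale (95% interval -0.47 to 0.30, limma adjusted p = 1.00), small against the difference between experiments. It turned to the opposite sign, up to 0.04, when TCRb-/- 2 or WT 1 was left out.

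Abat was also the member with a difference by experiment. It was lower in experiment 2 by -0.23 on the log2 scale (95% interval -0.38 to -0.07, limma adjusted p = 0.0477), in a comparison in which 14.7% of all genes were called lower and 8.95% higher in experiment 2. The call was close to the threshold and was lost without TCRb-/- 1, without TCRb-/- 2 and without WT 1, with differences of -0.28 to -0.17 as each library was left out in turn. None of the 5 members was called higher in experiment 2. By overlap alone, Abat was lower in both libraries of experiment 2, as 37.2% of genes were, and Slc6a11 was higher, as 30.1% were. Gad1, Gad2 and Slc32a1 overlapped between experiments, with differences of 0.01, 0.08 and -0.11 on the log2 scale.

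**Figure D3:**
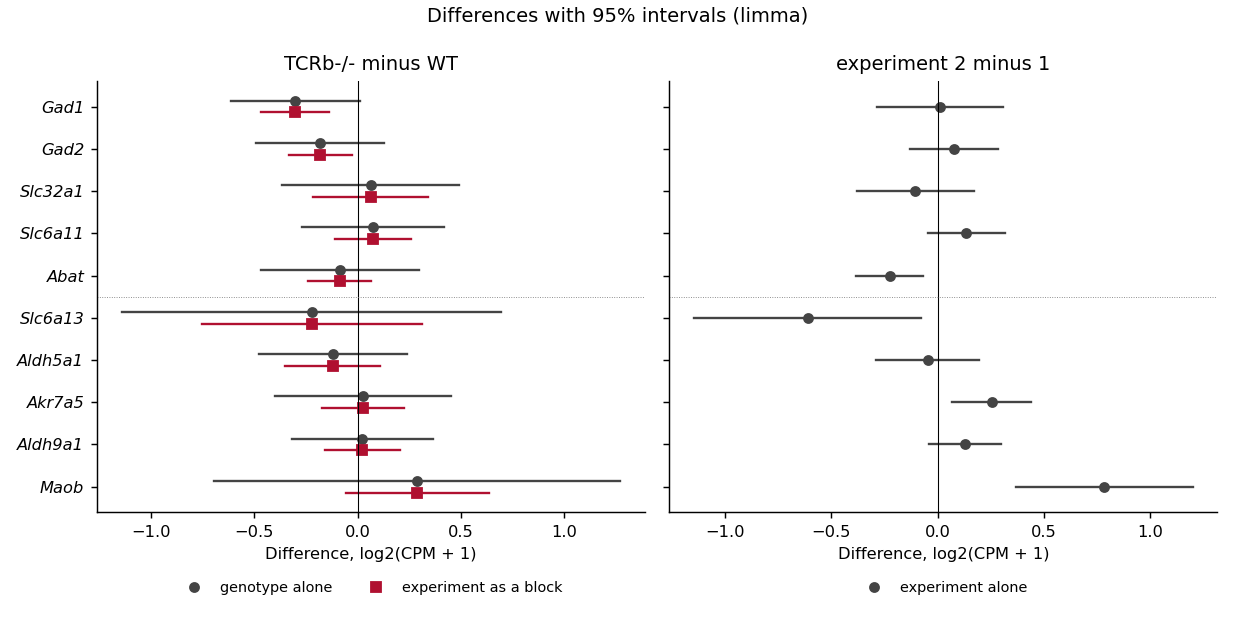
Difference TCRb-/- minus WT (left) and experiment 2 minus experiment 1 (right) on the log2(CPM + 1) scale, with 95% intervals from limma, for the 5 members and, below the dotted line, 5 genes of other GABA transporters and breakdown. Grey circles are fits of the named factor alone and red squares the genotype fit with the experiment as a block; for Gad1 and Gad2 the red interval excludes 0 and the grey one does not.

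Levels of different genes were compared as CPM per kilobase of annotated exon. In WT the order was Gad1 at 107 ± 2.75, Gad2 at 99.6 ± 3.456, Abat at 57.0 ± 5.67, Slc32a1 at 13.6 ± 0.886 and Slc6a11 at 10.1 ± 0.646 CPM per kb (SD, n = 2 pools). In TCRb-/- the first 2 were in the opposite order, at 86.5 ± 3.18 for Gad1 and 87.8 ± 3.65 for Gad2, which did not differ beyond their spread, followed by Abat at 53.7 ± 6.57, Slc32a1 at 14.3 ± 2.43 and Slc6a11 at 10.7 ± 0.761 CPM per kb. The synthesis enzymes and Abat therefore lay well above the 2 transporters in every library. The order of Gad1 and Gad2 depended on the length used: the union of Gad1 exons was 7639 bases and its longest transcript 3601 bases, and with the latter Gad1 was at 226 CPM per kb in WT and 184 in TCRb-/-, against 102 and 89.8 for Gad2. With longest transcripts Abat, at 95.2 in WT and 89.8 in TCRb-/-, was not separated from Gad2.

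Ratios within a library do not depend on how libraries are scaled to each other. The ratio of Gad1 to Gad2, per kb, was 0.989 and 0.982 in TCRb-/- and 1.12 and 1.03 in WT, so that Gad1 was lower relative to Gad2 in TCRb-/- and the genotypes did not overlap. Gad1 to Slc32a1 was 5.27 and 7.08 in TCRb-/- and 8.40 and 7.38 in WT, again without overlap. Gad1 to Abat was 1.44 and 1.81 in TCRb-/- and 1.78 and 1.98 in WT, and here the genotypes overlapped. Relative to the summed pan-neuron markers, Gad1 was 8.49% and 8.40% in TCRb-/- and 9.93% and 9.89% in WT, and Gad2 was 6.60% and 6.58% in TCRb-/- and 6.83% and 7.41% in WT. Snap25 alone gave 3433 to 3830 CPM of a pan-neuron sum of 7583 to 8355 CPM. Set against this sum both enzymes stayed lower in TCRb-/-, although for Gad2 in experiment 1 the gap was narrow, at 6.60% against 6.83%. The same share was 0.589% and 0.434% in TCRb-/- and 0.433% and 0.490% in WT for Slc32a1, and it overlapped for Abat as well. Relative to the summed striatum markers the genotypes overlapped for both enzymes: Gad1 was 9.09% and 37.6% in TCRb-/- and 13.03% and 20.8% in WT, and Gad2 was 7.08% and 29.5% in TCRb-/- and 8.97% and 15.6% in WT. With 2 libraries against 2 an exact permutation test of a single ratio cannot give a p below 0.33, so none was run.

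Marker sums of neighbouring regions and other cell types moved with the genotype or the experiment beside these genes. The 16 striatum markers, which mark another mostly GABAergic region, summed to 7078 CPM in TCRb-/- 1, 1801 CPM in TCRb-/- 2, 6367 CPM in WT 1 and 3853 CPM in WT 2, and all 16 were lowest in TCRb-/- 2. In experiment 1 the striatum sum was higher and Gad1 and Gad2 were lower in TCRb-/-, and in experiment 2 all 3 were lower. The striatum sum was lowest in TCRb-/- 2, and Gad1 and Gad2 were lowest in TCRb-/- 1. The 16 choroid plexus markers were all higher in TCRb-/- in both experiments, with sums of 2183 and 6986 CPM in TCRb-/- against 1336 and 4253 CPM in WT. The 10 thalamus markers summed to 742 and 1779 CPM in TCRb-/- and 731 and 1213 CPM in WT. Of these sums Calb2, which is also on the interneuron list, gave 330 and 912 CPM in TCRb-/- and 312 and 657 CPM in WT. The 12 cortex and hippocampus markers summed to 402 and 154 CPM in TCRb-/- against 506 and 168 CPM in WT. Astrocyte markers summed to 3097 and 3145 CPM in TCRb-/- and 2808 and 2953 CPM in WT, higher in TCRb-/- in both experiments as Slc6a11 was. Aldoc alone gave 1557 and 1600 CPM of these sums in TCRb-/- and 1436 and 1478 CPM in WT. Of the 14 astrocyte markers, 7 were higher and 1 was lower in TCRb-/- in both experiments, beside 3760 and 3413 of all 13912 genes tested. Sums were 9171 to 10865 CPM for oligodendrocyte, 131 to 144 CPM for microglia, 10.9 to 16.4 CPM for endothelial and 32.6 to 57.3 CPM for meningeal fibroblast markers. No marker was at 0 reads in any library. The 11 pan-neuron markers summed to 7583 and 8074 CPM in TCRb-/- and 8355 and 8092 CPM in WT. In both experiments 5 of them were lower and 0 higher in TCRb-/-, beside 3413 and 3760 of all 13912 genes tested. The part of the striatum, choroid plexus, thalamus, cortex, astrocyte and pan-neuron sums in the differences of the GABA genes was not tested.

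**Figure D4:**
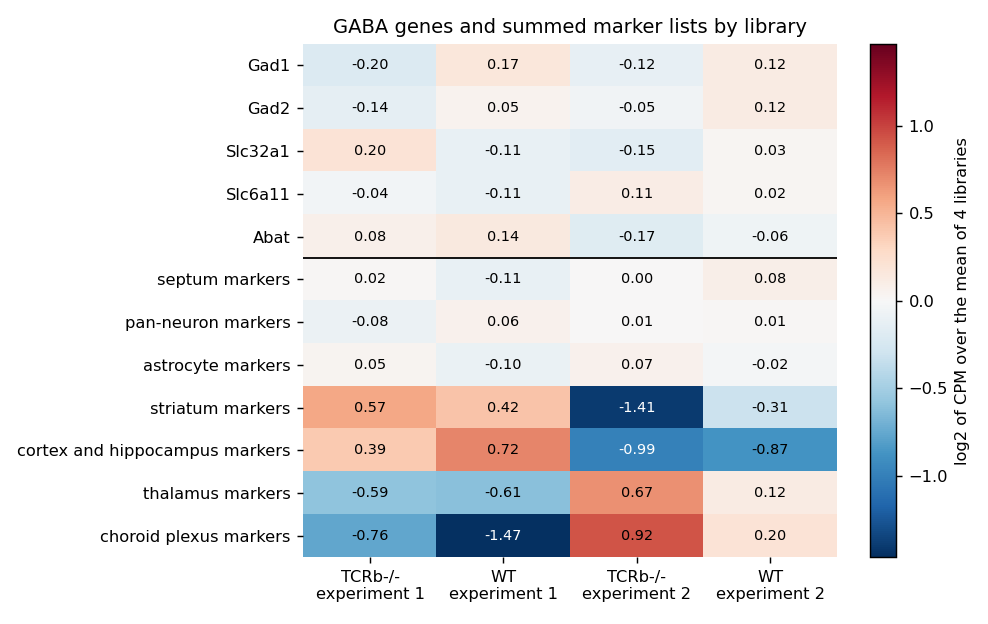
Level of the 5 members and summed level of 7 marker lists in each library, as log2 of CPM over the mean of the 4 libraries (colour and printed value). Gad1 reads -0.20 and -0.12 in TCRb-/- and 0.17 and 0.12 in WT. The striatum and choroid plexus sums range far more widely, between experiments and between genotypes. In experiment 2 the striatum sum reads -1.41 in TCRb-/- and -0.31 in WT. The choroid plexus sum reads -0.76 and 0.92 in TCRb-/- and -1.47 and 0.20 in WT.

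Of the other genes of GABA uptake and breakdown, Aldh5a1 alone had both TCRb-/- libraries below both WT libraries, as Gad1 and Gad2 did. Over all genes tested this share was 8.04%. The rest of the list did not repeat the pattern of the synthesis enzymes. Of 7 genes on that list 6 were listed, and 0 were called by genotype (limma, 0% of all genes). In both experiments 1 was lower and 1 was higher in TCRb-/-, beside 3413 and 3760 of all 13912 genes tested. The median difference was 0.02 on the log2 scale, beside 0.00 over all genes tested. Slc6a13, the transporter GAT2 of meninges and liver, was near the lower limit, at 2.36 and 1.85 CPM in TCRb-/- and 4.08 and 1.57 CPM in WT. Aldh5a1, succinate semialdehyde dehydrogenase, which follows Abat in GABA breakdown, was the gene lower in both experiments: 23.5 and 23.4 CPM in TCRb-/- against 26.4 and 24.8 CPM in WT, a difference of -0.12 (limma adjusted p = 1.00). Akr7a5, which reduces succinate semialdehyde, was at 57.4 and 74.2 CPM against 60.9 and 67.4 CPM. Aldh9a1, which makes GABA from putrescine by a side route, was at 53.8 and 58.4 CPM against 52.5 and 57.9 CPM. Maob, monoamine oxidase B, which acts on that route too, was at 56.9 and 127 CPM against 60.0 and 80.6 CPM, and it rose by 0.78 on the log2 scale in experiment 2 (limma adjusted p = 0.0203).

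Of the genes that supply glutamate and glutamine, 13 were listed and 12 tested, with a median difference of -0.04. In both experiments 3 were lower and 4 higher in TCRb-/-, beside 3413 and 3760 of all 13912 genes tested. Gls2, a glutaminase, had the lowest difference at -0.21 (23.3 and 28.2 CPM in TCRb-/-, 27.3 and 32.4 CPM in WT, limma adjusted p = 1.00). Slc1a3, the astrocytic glutamate transporter GLAST, had the highest at 0.13 (limma adjusted p = 1.00). Slc1a1, the neuronal glutamate transporter EAAC1, fell in experiment 2 by 0.39 on the log2 scale (limma adjusted p = 0.0154). Of 6 genes for the pyridoxal phosphate cofactor of the decarboxylases and for related enzymes, 4 were listed, with a median of 0.01, and Pdxk, the kinase that activates vitamin B6, was lowest at -0.11. Pdxk also fell by 0.41 in experiment 2 (limma adjusted p = 0.0152).

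The 7 genes of GABA-B receptors and chloride transporters had a median of 0.07. In both experiments 1 was lower and 3 were higher in TCRb-/-, beside 3413 and 3760 of all 13912 genes tested. Gabbr2, a GABA-B receptor subunit, was highest at 0.18, with 114 and 88.4 CPM in TCRb-/- and 96.8 and 80.3 CPM in WT (limma adjusted p = 1.00, and 0.848 with the experiment as a block), and it fell by 0.31 in experiment 2 (limma adjusted p = 0.0470). Kctd12, an auxiliary subunit of the same receptor, was lowest at -0.16. Slc12a5, the neuronal chloride exporter KCC2, fell by 0.43 in experiment 2 (limma adjusted p = 0.0103). The 8 genes of the inhibitory synapse scaffold had a median of -0.02, Clptm1, which limits the forward traffic of GABA-A receptors, was highest at 0.11, and 4 of the 8 were called lower in experiment 2 (limma), beside 14.7% of all genes.

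Of 14 transcription factors of GABAergic neurons 13 were tested, 0 were called by genotype, and the median was -0.05. In both experiments 4 were lower and 1 higher in TCRb-/-, beside 3413 and 3760 of all 13912 genes tested. Lhx8, a LIM homeodomain factor of basal forebrain neurons, had the lowest difference at -0.32, with 31.5 and 39.7 CPM in TCRb-/- and 41.3 and 47.5 CPM in WT (limma adjusted p = 1.00, and 0.848 with the experiment as a block). Lhx6, its relative in interneurons of medial ganglionic origin, was picked after its values were seen. It was at 78.1 and 75.9 CPM in TCRb-/- and 95 and 92.7 CPM in WT, with ratios of 0.822 and 0.819 in the 2 experiments. Its adjusted p was 1.00, and 0.848 with the experiment as a block (limma). For both Lhx genes the TCRb-/- libraries lay below both WT libraries, as for Gad1 and Gad2. Sp9, a factor of striatal projection and olfactory neurons, was highest at 0.14, and Meis2, a factor of the striatum and the amygdala among other regions, was 361 and 141 CPM in TCRb-/- against 329 and 219 CPM in WT and fell by 0.96 in experiment 2 (limma adjusted p = 0.0102). Over the 50 tested genes of all these lists together, 10 were lower and 11 higher in TCRb-/- in both experiments. Over all 13912 genes tested, 3413 were lower and 3760 higher in both. Of the 50, 0 were called by genotype (limma). By experiment, 1 was called higher and 11 lower in experiment 2 (limma), beside 8.95% and 14.7% of all genes.

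**Figure D5:**
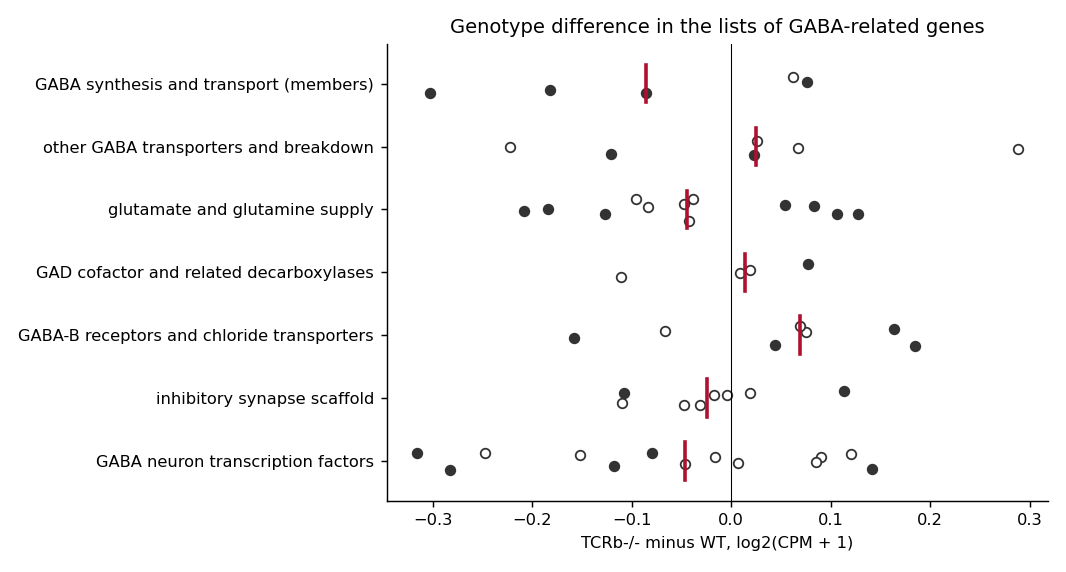
Difference TCRb-/- minus WT on the log2(CPM + 1) scale for each tested gene of the members and of 6 lists of GABA-related genes; filled points had the same direction in both experiments, open points did not, and red bars are medians. The members span -0.30 to 0.08 with a median of -0.09, and the medians of the other lists lie between -0.05 and 0.07.

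Likeness was taken as the root mean square distance between profiles of log2(CPM + 1) over the 4 libraries, each centred on its mean, among the 9820 genes averaging 10 CPM or more. Among the members, Gad1 and Gad2 were the closest pair at 0.075 and Gad1 and Slc32a1 the farthest at 0.24. The genes nearest to Gad1 were Sos1 at 0.016, Rad50 at 0.026 and Zfp942 at 0.030, and 15 genes lay within 0.05. For Gad2 they were Ogg1, Dfna5 and Kctd9, with 153 genes within 0.05. Slc32a1 was nearest to Celf3, Phkg1 and Mal, with 34 genes within that distance. Slc6a11 was nearest to Nop16 and Sil1 and Abat to Nfrkb, Anp32b and Med1, with 734 and 451 genes within 0.05. With 4 libraries a small distance describes these libraries only. The distance of 0.05 was the same for every member, whatever the size of its differences between libraries. The counts within it are therefore not a measure of how particular a profile is.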

How the data were processed

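RNA-seq values of 4 septal libraries were used. Per the submitters' processing notes, HISAT2 2.1.0, SAMtools 1.3, HTSeq 0.9.1, R 4.0.5 and limma 3.46.0 were used with build mm10; their settings, and whether reads were counted by strand, are not stated in the sources used here. The deposited values were log2 CPM, computed by the authors after raising each gene's reads by 0.5 and the library total by 1, as the values themselves show. Solving for the total gave whole reads for 100% of values within 0.001 reads. Each file listed 15426 rows, 97.6% to 97.8% of the reads; 17 were spike-in RNAs and were left out, and 12 gene rows shared a symbol.

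CPM of the library total were transformed to log2(CPM + 1), which understates changes of low genes, and genes averaging under 1 CPM were left out. Genotype, and separately experiment, was tested with limma 3.58.1 in R 4.3.3 (empirical Bayes with a mean-variance trend, two-sided, Benjamini-Hochberg over all genes, threshold 0.05), tested first on simulated data. The labels give the replicate number as the experiment, so numbers pair the libraries; same-numbered deviations correlated at 0.72 across genes. Alternatives were other pseudocounts, filters, scalings and fits, the block, and each library left out. Intervals of counts are exact, at 95%. Python 3.11.15 was used for other steps. Positions are from GENCODE M21 and upstream sequences from RefSeq.

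The members and lists were chosen with earlier results of these data known. Named were the members, the listed genes of other GABA transport and breakdown, the highest and lowest gene of each other list by genotype and by experiment, and the 3 genes nearest each member in profile. Csad, Slc12a2 and Iqsec3, also named by this rule, were at 0.02, 0.07 and -0.11 by genotype and not past the threshold in either comparison. Some genes that the rule names are not reported here; counts and medians of lists include them.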

Additional observations from a re-analysis of the deposited data

Results flagged for a closer look

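The genotype difference of Slc32a1 had opposite signs in the 2 experiments, 0.30 on the log2(CPM + 1) scale in experiment 1 and -0.17 in experiment 2, so that the second minus the first was -0.47. With 1 pool per genotype in each experiment the spread between pools is not known within an experiment, and the difference was not tested. No other member crossed 0 between the experiments.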

How the results depend on the processing

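Gad1 and Gad2 kept a lower level in TCRb-/- under every alternative run, which was in part fixed in advance. Both TCRb-/- libraries lay below both WT libraries, so leaving out 1 library could not turn the sign. Filters, the trend and the block change the SE and p but leave the difference itself as it was. Gad1 ranged from -0.31 to -0.29 on the log2 scale over 12 settings (adjusted p 0.777 to 1.00, limma) and from -0.34 to -0.26 with 1 library left out, and Gad2 from -0.19 to -0.17 and from -0.22 to -0.14. With the experiment as a replicate block, 2 genes differed by genotype, and 0 did with the block on the deposited log2 values or without the trend; the block changed no call of a member. With 1 library left out 0 to 47 genes differed by genotype, 47 of them without TCRb-/- 1 and 1 without TCRb-/- 2; a group is then 1 pool that is assumed to vary like the other. The count by experiment, 3292, was 629 without the trend, 0 without it when blocked by genotype, and 1406 to 3390 with 1 library left out. Abat by experiment missed the threshold at -0.23 with no filter (adjusted p 0.0513), at -0.19 with median-of-ratios scaling (0.0759), and at -0.23 when the trend was dropped, alone (0.141) or together with blocking by genotype (0.161). Gad1 by experiment was -0.047 under quantile normalization, Aldh5a1 0.038, and the list medians were 0.11 for other GABA transporters and 0.057 for transcription factors. The cause of these shifts was not tested. With longest transcripts the per-kb ratios were, in WT and TCRb-/-, 2.22 and 2.04 for Gad1 to Gad2, 16.7 and 13.1 for Gad1 to Slc32a1, and 2.39 and 2.06 for Gad1 to Abat, through the lengths alone.

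Leaving out 1 library turned several small differences. By genotype the ranges were -0.11 to 0.23 for Slc32a1, -0.21 to 0.039 for Abat, -0.72 to 0.27 for Slc6a13, -0.16 to 0.21 for Akr7a5, -0.047 to 0.093 for Aldh9a1, -0.28 to 0.86 for Maob, -0.14 to 0.31 for Slc1a1, -0.38 to 0.16 for Pdxk, -0.11 to 0.15 for Csad, -0.053 to 0.19 for Slc12a2, -0.20 to 0.35 for Slc12a5 and -0.92 to 0.43 for Meis2. The genotype median of every list changed sign: it ranged from -0.15 to 0.0044 for the members, -0.11 to 0.074 for other GABA transporters, -0.10 to 0.031 for glutamate supply, -0.036 to 0.080 for the cofactor list, -0.18 to 0.24 for GABA-B and chloride genes, -0.12 to 0.14 for the scaffold and -0.077 to 0.014 for transcription factors. By experiment the ranges were -0.17 to 0.19 for Gad1, -0.017 to 0.17 for Gad2, -0.25 to 0.043 for Slc32a1, -0.28 to -0.17 for Abat, -0.13 to 0.034 for Aldh5a1, -0.21 to 0.019 for Slc1a3, -0.17 to 0.029 for Clptm1 and -0.012 to 0.26 for Sp9. The median ranged from -0.11 to 0.10 for the members and from -0.063 to 0.10 for transcription factors. At 2 pools per genotype the 95% intervals of the members reach 0.3 or more to either side in the fit of genotype alone, and they are narrower with the block.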

Other observations

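The septum and interneuron markers named here were picked with their values in view, and any link of theirs to Gad1 was not tested. Of the 14 listed septum markers 13 were tested, with 0 called by genotype (limma). In both experiments 3 were lower and 5 higher in TCRb-/-, beside 3413 and 3760 of all 13912 genes tested. Chat, which makes acetylcholine, was at 9.92 and 8.46 CPM in TCRb-/- and 15.8 and 11.2 CPM in WT (limma adjusted p = 0.848 with the experiment as a block). Slc5a7, the choline transporter of the same neurons, was at 16.8 and 8.35 CPM against 19.3 and 11.9 CPM, and Slc18a3, their vesicular transporter, at 16.1 and 11.3 CPM against 16.6 and 14.3 CPM. Ngfr, a neurotrophin receptor of the same neurons, was higher in TCRb-/- in experiment 1 and lower in experiment 2, at 2.89 and 1.85 CPM against 2.17 and 2.86 CPM. Crhr2, a corticotropin-releasing factor receptor of the lateral septum, went the other way, at 14.2 and 20.1 CPM against 11.5 and 11.7 CPM (limma adjusted p = 0.848 with the block), and Glp1r was at 14.6 and 10.3 CPM against 8.89 and 8.77 CPM. Sst and Nts, neuropeptide genes of lateral septal GABAergic neurons, showed no such order, with differences of -0.03 and -0.00 on the log2 scale.

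Of the 9 listed interneuron markers, 0 were called by genotype (limma). In both experiments 4 were lower and 1 was higher in TCRb-/-, beside 3413 and 3760 of all 13912 genes tested. Pvalb, the calcium-binding protein of fast-spiking neurons, was at 23.2 and 39.8 CPM in TCRb-/- and 27.97 and 56.6 CPM in WT, and Npy at 77.7 and 36.1 CPM against 84.2 and 60.1 CPM. Calb2, which is also counted in the thalamus sum, was at 330.0 and 912 CPM against 312 and 657 CPM. It differed mainly by experiment, by 1.27 on the log2 scale (limma adjusted p = 0.00386).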
